A study of Mus musculus with 4 samples.

Results

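The TBP E design was measured as 2 libraries of 59-base probes on DNA arrays, one with mutated bases in its constant part (TBP_MUT_E59) and one without (TBP_E59). Both libraries ran through all 256 combinations of 4 varied bases. They were selected by the names in the files and paired by those bases, which gave 512 of the 6126 probe names of the series. Each probe had 10 spots on each array, and its value was the median fluorescence intensity of its unflagged spots, on a linear scale up to a ceiling of 65535.

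The series used 4 arrays, and each group was 1 array. An antibody against cyclobutane pyrimidine dimers (CPD) was applied at a dilution of 1 in 400 to a UV array and to a non-UV array. An antibody against 6-4 photoproducts (6-4PP) was applied at 1 in 80 to another UV array and another non-UV array. The arrays are called CPD UV, CPD non-UV, 6-4PP UV and 6-4PP non-UV. Both antibodies are described as mouse antibodies, and the probes are synthetic DNA, so no tissue or mouse gene was measured. The condition was read from the array condition label, which the titles of the 2 arrays with the 6-4PP antibody contradict. The UV dose is not given in the sources used here.

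UV light can fuse 2 neighbouring pyrimidines of a DNA strand into a CPD or a 6-4PP, and each antibody recognises its own kind of lesion. In the literature on naked DNA, TT is the main site of CPDs, and TC and TT are the main sites of 6-4PPs. TBP, the TATA-binding protein, holds the TATA box from the minor groove and bends it sharply. No TBP was on these arrays, so the comparison of the 2 libraries asks what a change inside a TATA-like stretch does to antibody signal from dipyrimidines elsewhere in the probe.

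The libraries are shown first by the pair with ATTA, which has a single central TT. Capitals mark the 2 mutated positions and the 4 varied bases.
TBP_MUT_E59_ATTA: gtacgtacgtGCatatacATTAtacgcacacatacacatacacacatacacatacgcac
TBP_E59_ATTA: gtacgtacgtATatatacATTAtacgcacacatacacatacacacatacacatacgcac

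Counted from 1 at the 5′ end, the mutated library differs from the E design by A11G and T12C and nowhere else. This interrupts the run of alternating T and A and adds no dipyrimidine. A stretch of 6 unchanged bases lies between position 12 and the varied bases at positions 19 to 22. The constant parts held 0 dipyrimidines on either strand in both libraries. Every dipyrimidine therefore lay in the window from position 18, a C, to position 23, a T, and both members of a pair carried the same ones.

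The next sequences are shown in the same notation because GACT and AGGC had the largest called differences in either direction on 6-4PP UV, and the others were among the brightest or dimmest probes on a UV array.
TBP_MUT_E59_GACT: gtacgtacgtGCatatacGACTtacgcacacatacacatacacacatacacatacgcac
TBP_E59_GACT: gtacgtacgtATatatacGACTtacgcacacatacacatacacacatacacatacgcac
TBP_MUT_E59_AGGC: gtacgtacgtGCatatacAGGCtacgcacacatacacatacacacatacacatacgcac
TBP_E59_AGGC: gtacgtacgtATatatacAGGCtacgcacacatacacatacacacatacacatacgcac
TBP_E59_TTTT: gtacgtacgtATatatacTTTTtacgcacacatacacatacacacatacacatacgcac
TBP_E59_TTGA: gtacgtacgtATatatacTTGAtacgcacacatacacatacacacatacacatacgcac
TBP_MUT_E59_CGGG: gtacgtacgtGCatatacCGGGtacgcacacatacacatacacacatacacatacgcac
TBP_E59_GGCG: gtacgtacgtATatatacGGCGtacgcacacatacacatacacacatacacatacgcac

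The spots of a probe give the technical spread within an array and say nothing of repeat irradiation or repeat hybridisation. Their median SD of log2 intensity in these libraries was 0.57 (CPD) and 0.26 (6-4PP) with UV, and 0.22 (CPD) and 0.15 (6-4PP) without. The deposited local median intensity of the CPD UV array ran from 1111 to 8004, and with the deposited spatial adjustment the median spot SD there was 0.29. Flags removed 23 mutated and 16 E design spots on 6-4PP UV, 41 and 52 on 6-4PP non-UV, and 0 on the arrays with the CPD antibody. At least 8 spots of every probe were left.

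The mutation in the TATA-like stretch went with little difference in signal on any array. On CPD UV the mutated probes had a median of 4679.5, from 1022 to 20065, and the E design probes 4914.75, from 1150.5 to 22181. On CPD non-UV the medians were 32.25 (25.5 to 65.5) for mutated probes and 34 (26 to 69) for E design probes. On 6-4PP UV they were 17085 (4273.5 to the ceiling) for mutated probes and 17992.8 (3456.5 to the ceiling) for E design probes. On 6-4PP non-UV they were 58.5 (50.5 to 93.5) for mutated probes and 61.5 (50.5 to 93) for E design probes. The ranges of the 2 libraries overlapped almost completely on each array, and probes of 1 library spanned far more than the libraries differed.

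Paired differences are given as E design minus mutated on the log2 scale, so that a positive value means a brighter E design probe. Their median was 0.04 on CPD UV (quartiles -0.19 and 0.23), with the E design probe brighter in 140 of 256 pairs. It was 0.05 on CPD non-UV (-0.04 and 0.15), with 154 pairs brighter in the E design. It was 0.09 on 6-4PP UV (0.00 and 0.17), or 1.07 times, with 181 pairs brighter in the E design and 62 dimmer. The other 13 pairs had both medians at the ceiling, which fixed their difference at 0, and the lower quartile fell among them. The median paired difference was 0.06 on 6-4PP non-UV (0.01 and 0.12), with 193 pairs brighter in the E design and 51 dimmer. Over all 2560 pairs of a site and its changed version in the series, the medians were -0.03, 0.00, 0.01 and 0.00 in the same order of arrays. With the spatially adjusted intensity the medians for the E design were -0.02, 0.04, 0.09 and 0.06, so the sign on CPD UV turned.

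Single pairs were tested over spots with limma, with Benjamini-Hochberg adjustment over the 2560 pairs of each array and a threshold of 0.05. Limma compares means of log2 spots. Differences printed for single pairs are of log2 medians unless given as a limma estimate or limma difference. On CPD UV 0 of the 256 pairs passed, with 18 at an unadjusted p below 0.05, against 0.0391% of the 2560 pairs, or 0.0391% for a brighter site alone (0 of the 256 pairs with the exact permutation test over spots). On 6-4PP UV the E design was higher in 6 pairs, or 2.34%, against 1.68% of all pairs, and lower in 1 pair, against 7.66% of all pairs (9.34% in either direction). On CPD non-UV it was higher in 2 pairs, against 0.469%, and lower in 0, against 1.95% (2.42% in either direction), with 24 of the 256 pairs at an unadjusted p below 0.05 in either direction. On 6-4PP non-UV it was higher in 13 pairs, or 5.08%, against 5.43%, and lower in 0, against 13.1% (18.6% in either direction), with 40 pairs at an unadjusted p below 0.05 in either direction. Of the 6-4PP non-UV tests, 2 passed with flagged spots kept and 7 by permutation, all with a brighter E design. The permutation test also found 0 pairs with a dimmer E design on either non-UV array. Most limma calls of a dimmer site in the series came from the p53 library pairs. They gave 48 and 138 of 196 on 6-4PP UV. On CPD non-UV they gave 11 and 37 of 50, and on 6-4PP non-UV 153 and 139 of 336. The other TBP library pairs (TBP_E60, TBP_59 and TBP_60) gave 0, 2 and 1 on 6-4PP UV. On each non-UV array they gave 0, 1 and 0. With the unadjusted intensity the shares of pairs with a brighter E design thus lay near those of the series. With the spatial adjustment they were 5.47% against 1.13% on CPD non-UV and 3.1% against 1.45% on 6-4PP UV. On CPD UV they were then 0.78% against 0.547%, and on 6-4PP non-UV 4.30% against 5.82%. A median limma SE of 0.26 on CPD UV and 0.12 on 6-4PP UV limits what the test can show.

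GACT has a TC on the opposite strand beside CT and TT on the listed strand. It had the largest called difference of log2 medians on 6-4PP UV. TBP_MUT_E59_GACT measured 32676 ± 11406 and TBP_E59_GACT 58759 ± 12581 there (SD, n = 10 spots each). The difference of log2 medians was 0.85, and the limma estimate was 0.58 (SE 0.16, adjusted p = 0.0228). On the other arrays GACT had 6773.5 mutated and 8935 E design on CPD UV, 35.5 and 39.5 on CPD non-UV, and 69.5 and 71.5 on 6-4PP non-UV. None of those differences passed. Spots at the ceiling occurred in both probes, and their values are lower bounds.

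The other called pairs with a brighter E design on 6-4PP UV differed less. CGGT had 15204.5 ± 2106 mutated and 19896.5 ± 2406 E design (SD, n = 10 spots each), a difference of 0.39 (adjusted p = 0.0344, limma, and 0.0555 with the same difference when pairs at the ceiling were left out). AGCT had 25617 ± 2923 mutated and 32352.5 ± 3938 E design, a difference of 0.34 (adjusted p = 0.00758, limma). GGGT had 13539 ± 1078 mutated and 16705.5 ± 1913 E design, a difference of 0.30 (adjusted p = 0.0192, limma). AAAT had 26830 ± 1967 mutated and 31801 ± 3617 E design, a difference of 0.25 (adjusted p = 0.011, limma). With the spatial adjustment the AAAT difference was 0.27 and was not called (adjusted p = 0.143, limma). CTAC, named because it completes the 6, had 12655 ± 2627 mutated and 14864 ± 1061 E design, a difference of 0.23 (adjusted p = 0.0408, limma). Its limma estimate was larger, at 0.39 (SE 0.12). Of these 6 pairs 5 end in T, where the varied bases and position 23 form a TT, as do 64 of the 256 pairs.

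AGGC was the single called pair with a dimmer E design on 6-4PP UV. TBP_MUT_E59_AGGC measured 7932.5 ± 3675 and TBP_E59_AGGC 5957.5 ± 1156 (SD, n = 10 spots each). The difference of log2 medians was -0.41, and the limma estimate was -0.60 (SE 0.19, adjusted p = 0.0445). By limma estimate AGGC thus differed in size no less than GACT. AGGC had 4665 mutated and 2735.5 E design on CPD UV, 31 and 31.5 on CPD non-UV, and 57 and 60.5 on 6-4PP non-UV, with no call. The pair has an AGG run whose opposite strand reads CCT.

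Called pairs on the non-UV arrays differed by small amounts on the linear scale. On CPD non-UV GCAT had 35 ± 4.43 mutated and 46.5 ± 13.2 E design (SD, n = 10 spots each), a difference of 0.41 (adjusted p = 0.0442, limma). TGTT had 44 ± 6.79 mutated and 56.5 ± 9.39 E design, a difference of 0.36 (adjusted p = 0.0479, limma). TGTT was no longer called with the spatially adjusted intensity (adjusted p = 0.21, limma) or by the exact permutation test (adjusted p = 0.0868), while GCAT passed both. On 6-4PP non-UV the 13 called differences ran from 0.14 to 0.30, with GTCT the largest, at 70 ± 6.35 mutated and 86 ± 7.5 E design (SD, n = 10 and 9 spots, adjusted p = 0.00424, limma).

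The spatial adjustment changed which pairs passed with the CPD antibody. On CPD UV 2 pairs then passed with a brighter E design, against 0.547% of all pairs, and 3 with a dimmer one, against 0.781% (1.33% in either direction). TATT had adjusted intensities of 10436 mutated and 16702 E design (difference 0.68, adjusted p = 0.0186, limma), and TCCT 9048 and 12738 (0.49, adjusted p = 0.0412, limma). The pairs with a dimmer E design were GGGT at -0.82 (adjusted p = 0.0433, limma), GGGC at -0.63 (adjusted p = 0.0084, limma) and GACG at -0.57 (adjusted p = 0.0179, limma). Their limma estimates were -0.58, -0.61 and -0.59. On the unadjusted scale GGGT had the other sign, 0.57, with 4938 mutated and 7324 E design, and was not called. On CPD non-UV 14 pairs, or 5.47%, then passed, all with a brighter E design, against 1.13% of all pairs. Of the 14, 11 end in T, as do 64 of the 256 pairs. For a dimmer site or either direction, 4.61% and 5.74% of all pairs passed there. With the 6-4PP antibody the adjusted counts for UV were 8 brighter, against 1.45%, and 2 dimmer, against 8.24% (9.69% in either direction). For non-UV they were 11 brighter, against 5.82%, and 0 dimmer, against 14.7% (20.5% in either direction). Of these brighter pairs, 6 of the 8 on 6-4PP UV and 5 of the 11 on 6-4PP non-UV end in T. Without the adjustment 7 of the 13 called on 6-4PP non-UV end in T. On CPD non-UV and both 6-4PP arrays the p53 library pairs again gave most calls of a dimmer site.

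The 2 libraries ordered the 256 sets of varied bases alike. Across these sets, which share an array and a probe backbone, Pearson r of log2 intensity between mutated and E design probes was 0.90 on CPD UV, 0.91 on CPD non-UV, 0.99 on 6-4PP UV and 0.82 on 6-4PP non-UV. On CPD UV r was 0.97 with the spatial adjustment. The value on 6-4PP UV includes the 13 pairs with both medians at the ceiling. The SD between probes on the log2 scale was 0.85 mutated and 0.91 E design on CPD UV, and 1.00 and 1.06 on 6-4PP UV. The SD of the paired differences was 0.41 on CPD UV and 0.16 on 6-4PP UV.

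Because the window starts with C and ends with T, every pair had 1, 3 or 5 dipyrimidines on both strands together. With 1 dipyrimidine (80 pairs) the CPD UV medians were 3246.5 mutated and 3167 E design, with 3 (160 pairs) they were 5530.25 and 5814, and with 5 (16 pairs) 8880 and 8468.25. On 6-4PP UV they were 8127.25 and 8425.25 with 1, 21488.8 and 23067.5 with 3, and 41893.2 and 44694.5 with 5. Median signal on 6-4PP UV and CPD UV was thus higher with more dipyrimidines in both libraries. The paired difference on 6-4PP UV had a median of 0.02 with 1 dipyrimidine, 0.11 with 3 and 0.10 with 5. On CPD UV the same medians were -0.02, 0.08 and -0.02, and with the spatial adjustment -0.08, 0.00 and 0.16, so the sign turned with 5 and the value with 3 was close to 0. The adjusted CPD UV medians with 5 dipyrimidines were 8073 mutated and 10377 E design, the other order than without adjustment.

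The non-UV arrays had the same order of classes over a narrower range. On CPD non-UV the medians were 29.5 mutated and 30.5 E design with 1 dipyrimidine, 34.75 and 35 with 3, and 43.25 and 47.25 with 5. On 6-4PP non-UV they were 56.25 and 58, then 60 and 62.5, then 69.75 and 73.5. TBP_E59_TTTT was the brightest of the 512 probes on both CPD arrays, at 22181 ± 4585 on UV and 69 ± 8.62 on non-UV (SD, n = 10 spots each).

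Probes with 1 dipyrimidine compare the 4 types without overlap of steps, at equal length. On CPD UV 20 pairs with a single TT had medians of 6826 mutated and 6580.5 E design. The 12 pairs with TC had 3709.25 and 4004.5, the 28 with CT 3115.25 and 2696.5, and the 20 with CC 2469 and 2094.75. These pooled medians mix steps unequally. Single TT had no pair at the first step of the window, single CC none at the last, and single TC none at either. On 6-4PP UV the order differed. TC was brightest at 17204 mutated and 19104 E design, followed by TT at 11135.8 and 10760.8, CC at 8287 and 8693.5, and CT at 6304.75 and 6170.75. The medians at fixed steps are given next.

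The medians also differed by where the single step lay, in both libraries and without a test. Step 1 joins position 18 to the first varied base and step 5 joins the last varied base to position 23, and steps 2 and 4 lie on the opposite strand. A single TT on CPD UV had medians of 4661.75 mutated and 4783.75 E design at step 2, 8083 and 9370 at step 3, 5907 and 5268.5 at step 4, and 8053.75 and 7762.25 at step 5. On 6-4PP UV a single TC had 11718.8 and 13292.5 at step 2, 18643.2 and 20355.5 at step 3, and 20667.2 and 23152.5 at step 4. Each of these medians rests on 4 pairs, or on 8 at step 5, and the flanking bases differ between steps. A single CC had CPD UV medians of 2317 mutated and 1922.5 E design at step 2, 2097.25 and 2021 at step 3, and 2896.5 and 2081.25 at step 4, each below TT at that step. Its 6-4PP UV medians were 6561.5 and 5977.75 at step 2, 7210.5 and 8116.5 at step 3, and 8771 and 9164.25 at step 4, each below TC at that step. A single CT stayed low at every step on 6-4PP UV, from 5581 to 7085.25 mutated and from 5235.25 to 7052.25 E design.

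With the step fixed at the centre, flanking A went with higher 6-4PP UV signal than flanking G for TT and TC, in values given without a test. ATTA had 10480 mutated and 13009 E design on CPD UV, 51 and 46.5 on CPD non-UV, 18233 and 20690.5 on 6-4PP UV, and 59.5 and 62 on 6-4PP non-UV. GTTG had 6790.5 and 5844 on CPD UV, 31 and 31.5 on CPD non-UV, 7201 and 6655.5 on 6-4PP UV, and 52.5 and 52.5 on 6-4PP non-UV. Both libraries thus placed ATTA above GTTG on all 4 arrays. ATCA had 34150.5 mutated and 35676.5 E design on 6-4PP UV, against 8897 and 8961.5 for GTCG. On CPD UV the mutated ATCA measured 5459 ± 2191 and the E design 2820.5 ± 1688 (SD, n = 10 spots each), which did not pass the test (difference -0.95, adjusted p = 0.583, limma). GTCG had 2071.5 mutated and 2540.5 E design on CPD UV.

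For a central CT or CC the signal was low with either flank on CPD UV. ACTA had 3553 mutated and 2766.5 E design on CPD UV, and GCTG 3284 and 1808. ACCA had 3034 and 2123, and GCCG 2171 and 1944. On 6-4PP UV, ACTA had 7423.5 and 7567.5, GCTG 5555.5 and 3456.5, ACCA 10126 and 11781, and GCCG 5847 and 5715.5. On CPD non-UV these 4 sets and ATCA and GTCG all lay between 27 and 35, and on 6-4PP non-UV between 50.5 and 64.

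The homopolymers, where dipyrimidines overlap, spanned much of the range. TTTT had 20065 mutated and 22181 E design on CPD UV and 41548 and 48657 on 6-4PP UV. CCCC had 1549.5 and 1665.5 on CPD UV and 21605 and 23140.5 on 6-4PP UV. AAAA, which places T tracts on the opposite strand, had 9229.5 and 9293.5 on CPD UV and 13990 and 15272 on 6-4PP UV. GGGG had 1999 and 2224 on CPD UV and 10812.5 and 11816 on 6-4PP UV. The non-UV values were 63 and 69 for TTTT on CPD, and between 28 and 34 for CCCC, AAAA and GGGG. On 6-4PP non-UV they were 68.5 and 71 for TTTT, 59 and 65.5 for CCCC, 56 and 54 for AAAA, and 55.5 and 60.5 for GGGG, of which CCCC passed the test with a brighter E design (adjusted p = 0.0497, limma) but not with the spatial adjustment (adjusted p = 0.105, limma).

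Grouped by the central 2 bases, with 16 pairs each, TT gave the highest median on CPD UV, 9839 mutated and 10697.8 E design. It was followed by AA, the same step on the opposite strand, at 7280 and 7284.5, and by TA at 6663.25 and 7004. TC had 5004.25 and 5230.75, CT 4692.25 and 4581, GA 4619.25 and 5555.5, AG 4599.25 and 4697.25, GG 3339.25 and 2974.25, and CC the lowest, 2623.5 and 2365.5. Of the others, TG, CA and AT lay between 4737.5 and 5899, and CG, AC, GT and GC between 2721 and 4586. The spread within a class was wide, from 6226 to 20065 among mutated TT probes and from 1549.5 to 9431.5 among mutated CC probes.

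On 6-4PP UV the highest medians were at central TC, 30772.2 mutated and 34259.5 E design. AA followed at 24403.8 and 24055.2, TT at 23327.5 and 24209.8, CT at 21650.2 and 23738, GA at 20391.2 and 21495.2, and CC at 20025 and 21660.2. AG had 17330.5 and 17811.8, and GG 12826.5 and 14607.2. CA, TA, CG and AT lay between 17573.8 and 20196.8, TG at 13668 and 15260, and AC at 11716.8 and 11412.8. GT with 8924.25 and 9211.25 and GC with 8035 and 8502.25 were lowest. This is the order among mutated probes; among E design probes TT was above AA and CC above GA. Differences between neighbouring classes were small beside the spread within each class.

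The bases at the borders of the window also went with signal. With T as the last varied base, CPD UV medians over 64 pairs were 9946.5 mutated and 9914.25 E design, against 4059.75 and 4567.75 with A, 3880.5 and 3838 with C, and 3268.5 and 3083 with G. On 6-4PP UV they were 30841 and 34821.2 with T, 17107.5 and 16853 with A, 12563.8 and 13298.8 with C, and 11504.8 and 11799 with G. On CPD non-UV, T had 43.75 and 46.5, while the other bases lay between 29.5 and 34. The paired difference by last base had medians of 0.11 with T, 0.03 with A, -0.01 with C and 0.02 with G on CPD UV, and of 0.11, 0.06, 0.10 and 0.07 on 6-4PP UV. With the spatial adjustment the CPD UV medians were 0.11 with T, 0.00 with A, -0.07 with C and -0.08 with G.

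The first varied base is the one nearest to the mutated positions. By that base the paired difference had medians of 0.10 with C, 0.08 with T, 0.03 with A and -0.10 with G on CPD UV. With the spatial adjustment these were 0.06, -0.02, -0.02 and -0.11. On 6-4PP UV they were 0.12 with C, 0.11 with A, 0.08 with T and 0.04 with G.

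At the upper end of the 6-4PP UV array 13 mutated and 18 E design probes had medians at the ceiling, where values are lower bounds without an order. All 13 sets of varied bases at the ceiling in the mutated library were at the ceiling in the E design library too. They included TTGA, TTAA and TTAT, and TTCT was at the ceiling in the E design and at 58607 ± 8804 in the mutated library (SD, n = 10 spots). A TC step on either strand was held by 10 of the 13 mutated and 14 of the 18 E design probes, against 35.9% of the 256 sets. The lowest E design probes on that array were GCTG at 3456.5, AGCG at 4004.5 and GGCG at 4437.5. The lowest mutated probes were AGCG at 4273.5, GGCG at 4768.5 and GCTA at 4984.

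On CPD UV the highest probes were TTTT, ATTT and AATT in both libraries. ATTT had 15293 mutated and 19253.5 E design, and AATT 16207.5 and 17512. The lowest mutated probes there were CGGG at 1022 ± 1584, CCGA at 1041.5 ± 2280 and CGGA at 1451.5 ± 2173 (SD, n = 10 spots each), against 2737, 4394.5 and 2223.5 for the same bases in the E design. The lowest E design probes were GGCG at 1150.5 ± 517, CGCA at 1167.5 ± 643 and ACCC at 1344.5 ± 1108, against 2938.5, 2529 and 1956.5 mutated. The lowest probes of the 2 libraries thus did not match, and none of these 6 pairs passed the test. CGGG and GGCG were printed again with the same sequences under TBP_59 names. Their differences were 1.42 and -1.35 under the TBP_E59 names, but 0.02 and -0.18 under the TBP_59 names. With the spatial adjustment they were 0.29 and -0.34, against 0.23 and -0.05. CCGA had the largest difference on that array, 2.08 (adjusted p = 0.706, limma), which was 0.85 with the spatial adjustment.

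Part of both libraries was printed a further time under other names. The 64 pairs ending in G had the same sequences as 64 pairs of the TBP_59 libraries that begin with C, which gave 10 more spots per sequence on the same array. For these 128 sequences the log2 medians under the 2 names differed by a median of 0.27 on CPD UV, 0.08 on CPD non-UV, 0.08 on 6-4PP UV and 0.07 on 6-4PP non-UV. The paired difference had the same sign under both names in 31 of 64 pairs on CPD UV, 38 on CPD non-UV, 41 on 6-4PP UV and 35 on 6-4PP non-UV. Its median under the TBP_E59 names and the TBP_59 names was 0.07 and 0.05 on 6-4PP UV, 0.02 and -0.09 on CPD UV, 0.02 and 0.05 on CPD non-UV, and 0.07 and 0.03 on 6-4PP non-UV. Across the 64 pairs, r between the names was -0.10 on CPD UV (0.30 with the spatial adjustment), 0.28 on CPD non-UV (0.18), 0.35 on 6-4PP UV (0.38) and -0.15 on 6-4PP non-UV (0.04). With the spatial adjustment the same-sign counts were 41 on CPD UV, 38 on CPD non-UV, 40 on 6-4PP UV and 39 on 6-4PP non-UV. A large share of single pairs thus did not keep the same sign over the 2 sets of spots. Some of these had a difference of exactly 0 under one of the names. The called pairs that end in G were CCGG and CGGG on 6-4PP non-UV. With the spatial adjustment they were CAGG there and GACG on CPD UV. Under the TBP_E59 and the TBP_59 names CCGG had differences of 0.23 and -0.01, and CGGG 0.23 and 0.00. With the spatial adjustment CAGG had 0.26 and 0.00, and GACG -0.57 and -0.31.

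UV and non-UV arrays were compared without a test, since each was 1 array, and scanner gain cannot be told apart from the condition. The UV minus non-UV difference on the log2 scale had medians of 7.19 mutated and 7.20 E design with the CPD antibody, and of 8.19 mutated and 8.22 E design with the 6-4PP antibody. With the titles of the 6-4PP arrays these 2 values are -8.19 and -8.22. For single pairs, the E design minus mutated difference of this quantity had a median of -0.02 with CPD and 0.01 with 6-4PP. With 6-4PP it was lowest for GCTG, at -0.62, and highest for GACT, at 0.81.

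The same 2-base change was made in the 60-base E libraries, where a G follows the varied bases, and in the TBP_59 libraries, where the varied bases lie 1 position earlier and a G follows them too. A set of varied bases therefore has other border dipyrimidines in those libraries. On 6-4PP UV the median paired difference was 0.09 for the 59-base E probes, 0.08 for the 60-base E probes and 0.09 for TBP_59. On CPD UV it was 0.04, 0.02 and 0.02. The difference of the paired differences was tested with limma for each set of varied bases, over 512 tests per array. It passed in 0 sets on CPD UV (0% of the tests), 6-4PP UV (0%) and 6-4PP non-UV (0%). Against the 60-base pair 14, 17 and 13 sets had an unadjusted p below 0.05 on these arrays, and against TBP_59 19, 15 and 22. On CPD non-UV it passed in 2 sets against the 60-base pair (0.391% of the tests), GCGT and TGTT. With the spatial adjustment 4 tests passed on CPD UV (0.781%) and 5 on CPD non-UV (0.977%).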

How the data were processed

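Fluorescence was measured on 4 arrays of 62976 spots, of which 61260 carried library probes. The deposited columns hold intensity on a linear scale, per the file headers: all spots, spots without flags, the local median and a spatially adjusted intensity. On each array the adjusted values equalled the unflagged intensity times 1 constant over the local median. The Cy3 column was 1 at every spot, so the amount of DNA was not corrected for. The scanner is not given in the sources used here.

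Unflagged intensity was the main value and adjusted intensity an alternative. Log2 spot values of 10 site and changed library pairs were fitted per array with limma 3.58.1 in R 4.3.3. Exact two-sided permutation tests over spots, an intensity trend with robust prior, flagged spots kept, means of spots and removal of pairs at the ceiling were alternatives. Fits were tested on simulated spots with a common SD on each array and no spatial gradient or ceiling, so those features were not covered. Log2 and p values were computed here. P-values compare spots of 1 array, which are technical replicates, and the number of arrays limits precision. The members, lists and tests were chosen with earlier results of these data known. Named pairs were those called on a UV array (5 at most per direction, with at least 3 unflagged spots), the 3 highest and lowest probes of each library there, 12 fixed sets of varied bases and the 16 central pairs of bases. Other pairs named (CTAC, those called on non-UV arrays or with the adjusted intensity) were chosen after their values were seen.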

Additional observations from a re-analysis of the deposited data

Results flagged for a closer look

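At 2 sets of varied bases the effect of the mutation differed between the 59-base and the 60-base E probes, by limma's test of the difference on the CPD non-UV array. Both sets end in T, which is followed by T at 59 bases and by G at 60 bases. Length and border base therefore cannot be told apart. GCGT had 30 ± 4.45 mutated and 34.5 ± 14.3 E design at 59 bases, and 36 ± 7.52 mutated and 27 ± 2.87 E design at 60 bases (SD, n = 10 spots each). The limma paired difference was 0.37 at 59 bases and -0.36 at 60 bases, and these differed by 0.73 (SE 0.17, adjusted p = 0.0318). TGTT had 44 ± 6.79 mutated and 56.5 ± 9.39 E design at 59 bases, and 43.5 ± 13.4 and 36.5 ± 6.81 at 60 bases. Its paired differences of 0.36 and -0.29 differed by 0.65 (SE 0.16, adjusted p = 0.0337, limma). With the spatial adjustment the 2 differences were 0.20 (adjusted p = 0.465, limma) and 0.18 (adjusted p = 0.556, limma). The sets then called against the 60-base pair on that array were others, ATAA and TATT.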

How the results depend on the processing

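With the spatially adjusted intensity, counts of called pairs changed by over 1.5 times as follows. On CPD UV they were 2 with a brighter E design and 3 with a dimmer one (0 and 0 as reported), on CPD non-UV 14 brighter (2 as reported), and on 6-4PP UV 2 dimmer (1 as reported). Tests against the 60-base pair and against TBP_59 passed in 2 and 2 sets on CPD UV, and against TBP_59 in 3 sets on CPD non-UV (0 each as reported). GGGT on CPD UV turned to -0.82 and was then called, and AAAT on 6-4PP UV was no longer called, at 0.27 (0.25 as reported). With the exact permutation test over spots, 1 pair passed on CPD non-UV, 11 with a brighter E design on 6-4PP UV (6 as reported) and 7 on 6-4PP non-UV (13 as reported). Keeping flagged spots left 2 called pairs on 6-4PP non-UV. When other pairs with a spot at the ceiling were left out, CGGT was no longer called (adjusted p = 0.0555, limma). Its own spots and its difference of 0.39 were unchanged. Under the title reading the UV minus non-UV medians of 6-4PP were -8.19 mutated and -8.22 E design. The cause of these shifts was not tested. The other 73 alternative values of summary results stayed within 1.5 times, for counts, or within the spot SD. For single pairs, 92 values kept their direction where called and their side of the threshold. The spot SD is wide beside the median differences, so on CPD UV a turn from 0.04 to -0.02 counted as unchanged. Equal counts could hold other sets. Some alternatives could not change a value. The arrays with the CPD antibody had 0 flagged spots, and only 6-4PP UV had spots of these probes at the ceiling. Means of log2 spots were what limma already tested. No paired analysis was possible because each group held 1 array.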

Other observations

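The antibodies ordered the varied bases partly alike. Across the 256 sets, which share the probe backbone, r of log2 intensity between the CPD UV and the 6-4PP UV array was 0.66 for mutated and 0.68 for E design probes. For the paired differences it was 0.37, and 0.22 with the spatial adjustment. Between UV and non-UV arrays of the same antibody, r of the paired differences was 0.02 with CPD (0.22 with the spatial adjustment) and 0.13 with 6-4PP (0.12).

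Sets of 4 purines and sets of 4 pyrimidines differed on the UV arrays. Over 16 pairs each, all-pyrimidine sets had CPD UV medians of 8880 mutated and 8468.25 E design, and all-purine sets 4433.5 and 5046.5. On 6-4PP UV the medians were 41893.2 and 44694.5 for all-pyrimidine sets, and 15554.8 and 16707.5 for all-purine sets. The all-pyrimidine sets carry 5 dipyrimidines and the all-purine sets 3.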
